A study of Homo sapiens with 15 samples.

Results

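The genes described here are those of the mitochondrial respiratory chain, encoded either in the nucleus or in the mitochondrial genome (MT), with a pair of nuclear regulators, in the human melanoma line A375. Members were chosen by gene name: the NDUF, SDH, UQCR, COX4 to COX8 and ATP5 series for complexes I to V, the MT-encoded mRNAs MT-ND, MT-CO, MT-ATP and MT-CYB, and PPARGC1A and PPARGC1B. This gave 98 of the 18322 genes in the table, namely 83 nuclear-encoded members, 13 MT-encoded members and the 2 regulators. All 98 entered the tests. By name, 37 nuclear-encoded and 7 MT-encoded members belong to complex I, 4 and 0 to complex II, 9 and 1 to complex III, 15 and 3 to complex IV, and 18 and 2 to complex V. Of the 83, 77 are subunits. The names also took in 4 pseudogenes (ATP5EP2, COX6A1P2, COX6CP1 and UQCRFS1P1), and ATP5S and ATP5SL, which are not subunits of the enzyme.

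RNA from A375, a line with an activating BRAF mutation, was sequenced in 5 groups of 3 libraries, and the series text calls them biological triplicates. Parental is the line itself, and Resistant is a clonal A375 population that withstands PLX4720, an inhibitor of mutant BRAF. The other groups were A375 with MYC T58A, a form of the growth-promoting transcription factor MYC that is degraded slowly (MYC T58A), and resistant cells labelled with a short hairpin RNA against MYC, named shMYC1 or shMYC2. Resistance comes from 1 clonal population, so the p-values carry the spread between 3 libraries and no spread between independent resistant populations. The sample titles name no independently made populations within MYC T58A or within either hairpin label. The p-values of those groups likewise carry the spread between 3 libraries, and a difference between populations cannot be told apart from that of the construct. The vector or promoter behind MYC T58A and the hairpins, and any drug exposure at harvest, were not given in the sources used here.

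In the respiratory chain, electrons pass from NADH (complex I) and succinate (complex II) through ubiquinone to complex III, cytochrome c and complex IV, where oxygen is reduced. Complexes I, III and IV pump protons across the inner mitochondrial membrane, and complex V, the ATP synthase, makes ATP as the protons return. Most subunits are nuclear-encoded and imported, while the mitochondrial genome encodes core subunits of complexes I, III, IV and V that are transcribed together in long precursors from both of its strands. PPARGC1A (PGC-1α) and PPARGC1B (PGC-1β) are coactivators that raise nuclear genes for respiration, among others through the factors NRF1 and GABP. In melanocytic cells PPARGC1A is a known target of the lineage factor MITF, and a high PPARGC1A level marks melanomas that rely on respiration.

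Promoters of the nuclear-encoded members are shown first because NRF1, GABP and MYC each have a known DNA motif against which the members can be read. RefSeq promoter entries (GRCh38.p14, from 250 bases before to 50 bases after each gene's start) were matched for 65 of the 83. Letters were searched on both strands. The core of the NRF1 motif, GCATGCGC, was in 20% of the 65 entries, in 5.35% of the 11455 entries of tested genes and in 3.27% of all 27305 entries. Its full palindrome, the core with GC before it, was in 6.15% of the members' entries and in 2.29% of those of tested genes. The ETS motif CCGGAAGT bound by GABP was in 13.8% and 8.29%, and the E-box CACGTG bound by MYC with its partner MAX was in 10.8% and 9.95%. Below are the stretches of 6 members to which the results return, each 5′ to 3′ on the strand of its gene, with the matched letters in capitals. ATP5C1, SDHD and NDUFA8 hold the NRF1 palindrome, NDUFS6 and SDHB hold its core, read on the opposite strand in NDUFS6, ATP5G1 holds the E-box, and SDHD also holds the ETS letters read on the opposite strand. The palindrome was in 4 members' entries, and NDUFB4, the one not shown, passed the threshold given below with shMYC2 against Resistant but not in MYC T58A against Parental. The core was in 13 members' entries, and those not shown are ATP5G2, ATP5I, ATP5J, COX5B, COX6A1, NDUFA6, NDUFB4 and NDUFS7. None of these was higher past that threshold in both of those comparisons. ATP5G2 was lower in MYC T58A, and ATP5I was lower with shMYC2.
ATP5C1 (chr10:7788135-7788184, plus strand): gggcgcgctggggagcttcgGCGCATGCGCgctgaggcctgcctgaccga
SDHD (chr11:112086743-112086822, plus strand): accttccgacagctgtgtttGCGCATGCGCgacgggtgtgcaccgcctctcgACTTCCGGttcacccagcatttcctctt
NDUFA8 (chr9:122159754-122159803, minus strand): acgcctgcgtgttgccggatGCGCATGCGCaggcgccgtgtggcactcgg
NDUFS6 (chr5:1801341-1801388, plus strand): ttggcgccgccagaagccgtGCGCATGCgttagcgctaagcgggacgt
SDHB (chr1:17054205-17054252, minus strand): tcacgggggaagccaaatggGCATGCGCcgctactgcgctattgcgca
ATP5G1 (chr17:48892771-48892816, plus strand): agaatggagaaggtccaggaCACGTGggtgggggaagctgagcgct
A match describes these letters in this window only, and no binding was measured.

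Values are normalized reads, which were read as counts scaled by 1 factor per library. Whole reads recovered from them sum to between 24222192 and 30399644 per library. The MYC values go against both hairpin labels: MYC was at 413 to 436 in Parental, 274 to 329.8 in Resistant, 459 to 518 in the libraries labelled shMYC1, 7589.5 to 8099.9 in those labelled shMYC2 and 3425 to 3612 in MYC T58A. A hairpin lowers its target, so every direction given for these libraries is that of a label that the target gene goes against. The libraries labelled shMYC2 stand furthest apart, with 1636 to 1694 genes at 0 against 296 to 665 in the other groups. Of 8 melanocyte markers 6 were measured, and their summed level was 6801 to 7102 in Parental, 3549 to 3988 in Resistant, 13098 to 15464 in the libraries labelled shMYC1, 191 to 244 in those labelled shMYC2, with DCT at 0, and 3579 to 3974 in MYC T58A. Most of the sum in Resistant and in MYC T58A was MITF, whose values are given below, so the sum does not follow each marker. Of the 6, 1 was called higher and 2 lower in Resistant against Parental, and 3 and 3 in MYC T58A against Parental. Against Resistant these were 2 and 1 with shMYC1, and 1 and 4 with shMYC2. How genes were called, and the shares over all tested genes, are given below. The sum of 8 fibroblast markers was 3970 to 4182 in Resistant and 430.2 to 619 in the other groups. Other markers were measured for 3 of 4 keratinocyte genes (summed level 776 to 2116 over all libraries, KRT5 at 0 with shMYC2), 3 of 4 endothelial genes (7.05 to 141) and 2 of 5 immune genes (18 to 278). The sum of 4 RNAs that reflect RNA quality and library preparation, mitochondrial ribosomal RNA among them, was 42855 to 44597 in Parental, 70246 to 74297 in Resistant, 22454 to 47698 with shMYC1, 88587 to 107970.0 with shMYC2 and 47359 to 50067 in MYC T58A. The part of these shifts in the results below was not tested.

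The regulators moved in opposite directions. PPARGC1A was at 61.3, 59.4 and 76.2 normalized reads in Parental, 111, 112 and 104 in Resistant, 26.6, 15 and 22.9 in the libraries labelled shMYC1, 4.31, 1.04 and 1.02 in those labelled shMYC2 and 30.1, 18.7 and 25.6 in MYC T58A. It was highest in Resistant and lowest with shMYC2, and the ranges of the libraries labelled shMYC1 and of MYC T58A overlap. PPARGC1B was at 473, 425 and 460.2 in Parental, 383, 401 and 364 in Resistant, 472, 418 and 445 in the libraries labelled shMYC1, 1008, 987 and 1004 in those labelled shMYC2 and 1212, 1127 and 1069 in MYC T58A. The groups with the highest MYC values held the most PPARGC1B, and the other 3 groups lay lower, with Parental and the libraries labelled shMYC1 overlapping.

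Against Parental, the log2 difference of PPARGC1A in MYC T58A was -1.39 ± 0.32 (SE, adjusted p = 0.000988) and that of PPARGC1B 1.32 ± 0.07 (SE, adjusted p = 7.96e-12), by limma on log2(value + 1) with p-values adjusted over all 17012 tested genes. Genes with an adjusted p under 0.05 are called higher or lower. Against Resistant, PPARGC1A was called lower with both hairpin labels, with log2 differences of -2.32 ± 0.32 (SE, adjusted p = 5.9e-06) for shMYC1 and -5.29 ± 0.32 (SE, adjusted p = 2.78e-11) for shMYC2, where the ratio of the means, 51.3, has a 95% Poisson interval of 23.6 to 142 that covers counting error only. PPARGC1B was called higher with both, at 0.22 ± 0.07 (SE, adjusted p = 0.00929) and 1.38 ± 0.07 (SE, adjusted p = 9.21e-13). The same 2 genes differed between the hairpin labels themselves, PPARGC1A by -2.97 ± 0.32 (SE, adjusted p = 1.03e-07) and PPARGC1B by 1.17 ± 0.07 (SE, adjusted p = 1.13e-11) for shMYC2 minus shMYC1. In Resistant against Parental, PPARGC1A was not called (log2 difference 0.73 ± 0.32, adjusted p = 0.0645), although the libraries did not overlap, and edgeR on the recovered reads gave an adjusted p of 0.000904. PPARGC1B was called lower there, with a log2 difference of -0.24 ± 0.07 (SE, adjusted p = 0.00499). It lies on chromosome 5, and the 50 tested genes nearest to it had a median log2 difference of -0.54 in this comparison.

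**Figure D1:**
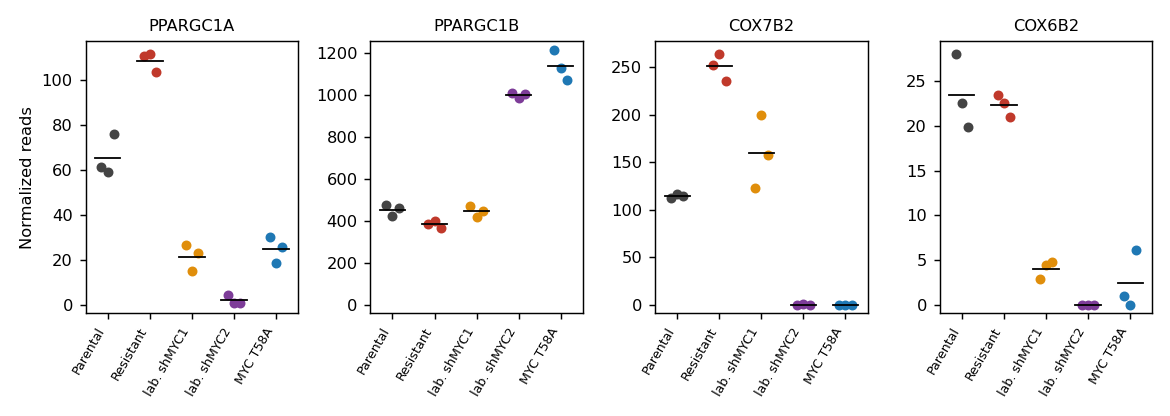
Normalized reads (linear axes) of PPARGC1A, PPARGC1B and the testis forms COX7B2 and COX6B2 in each of the 15 libraries, with a black line at each group mean; "lab." stands for labelled. PPARGC1A is lowest and PPARGC1B over 980 in the libraries labelled shMYC2, and COX7B2 is at 0 or 1 in these and in MYC T58A.

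Summed over members, nuclear-encoded and MT-encoded mRNAs did not keep a fixed ratio. The 13 MT-encoded mRNAs took 0.964, 0.841 and 0.81% of all reads in the Parental libraries, 0.989, 0.723 and 0.905% in Resistant, 0.631, 0.52 and 0.756% in the libraries labelled shMYC1, 0.965, 1.03 and 0.961% in those labelled shMYC2 and 0.687, 0.804 and 0.881% in MYC T58A. The 83 nuclear-encoded members took 0.865, 0.872 and 0.883% in Parental, 0.815, 0.817 and 0.834% in Resistant, 0.747, 0.967 and 0.802% with shMYC1, 0.99, 1 and 0.961% with shMYC2 and 0.908, 0.884 and 0.955% in MYC T58A. MT shares spread widely within every group but the libraries labelled shMYC2, while nuclear shares were tight except with shMYC1. The ratio of the MT sum to the nuclear sum ran from 0.538 in library 2 labelled shMYC1, which had the lowest MT share of all 15 libraries and the highest nuclear share of its group, to 1.21 in Resistant library 1. Since these are bulk samples, fewer cells of a type and less RNA per cell cannot be told apart.

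**Figure D2:**
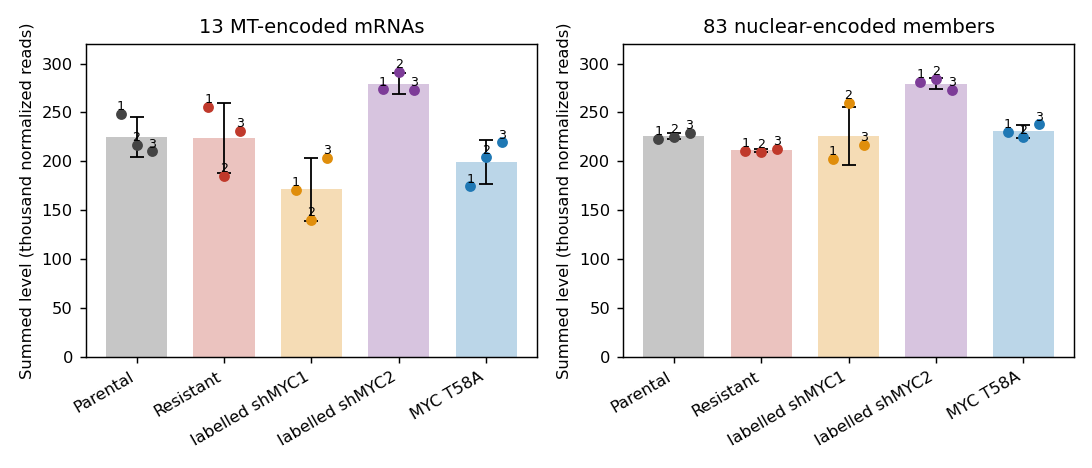
Summed normalized reads (divided as the axis labels say) of the 13 MT-encoded mRNAs (left) and the 83 nuclear-encoded members (right); points are libraries numbered within their group, bars are group means and error bars are the SD of 3 libraries. Library 2 labelled shMYC1 is the lowest of the 15 on the left and above the other libraries of its group on the right, and the 3 libraries labelled shMYC2 lie above all others in both panels.

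In Resistant against Parental, most respiratory chain genes were not called, and the nuclear-encoded members that fell included 5 of the 6 on chromosome 5. Of the 83 nuclear-encoded members 3 were called higher and 14 lower, where 51.6% of all tested genes were called, 27.2% higher and 24.4% lower. The share of members called, 20.5%, was thus well below that of all genes, and the members' median log2 difference was -0.07 against 0.01 over all tested genes. For 37 members no Resistant library fell within the Parental range or the reverse, against 63.5% of all tested genes. With only the 6 libraries of these groups in the fit, 7 members were called higher and 27 lower.

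Of the 6 nuclear-encoded members on chromosome 5 (COX7C, NDUFA2, NDUFS4, NDUFS6, SDHA and UQCRQ), 5 were called lower, with a median of -0.67 where all tested genes of the chromosome had a median of -0.49. NDUFS4, an accessory subunit that stabilises the NADH-oxidising arm of complex I, was at 1404, 1445 and 1417 in Parental and 730.0, 646 and 709 in Resistant, a log2 difference of -1.03 ± 0.08 (SE, adjusted p = 1.05e-08). NDUFS6, a zinc-binding subunit of the same arm, was at 2366, 2286 and 2359 and 1050.1, 1163 and 1275, a difference of -1.01 ± 0.08 (SE, adjusted p = 7.51e-09). SDHA, the flavoprotein of complex II that oxidises succinate, was at 1832, 1883 and 1946 and 1163, 1041 and 1154, a difference of -0.75 ± 0.05 (SE, adjusted p = 7.12e-10). All 3 genes were separated from Parental by far more than the spread of either group, and each lay below the median of its 50 nearest tested genes (-0.54, -0.51 and -0.51). SDHA has near-identical pseudogene copies, and how reads matching several places were counted was not given in the sources used here. NDUFA2, another subunit of the NADH-oxidising arm, had a difference of -0.58 ± 0.11 (SE, adjusted p = 0.000426) and UQCRQ, a small subunit of complex III, one of -0.53 ± 0.15 (SE, adjusted p = 0.00764), close to their neighbours at -0.59 and -0.45. COX7C, of complex IV, was not called (-0.26 ± 0.13, adjusted p = 0.116).

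Off chromosome 5, ATP5E, the epsilon subunit of complex V, was at 5599.6, 5839 and 6006 in Parental and 4020.2, 4312 and 4236 in Resistant, a log2 difference of -0.47 ± 0.12 (SE, adjusted p = 0.00367). COX7A2L, which helps to join complexes III and IV into supercomplexes, was at 2156, 2250.1 and 2351 and 1703, 1667 and 1675, a difference of -0.42 ± 0.05 (SE, adjusted p = 7.85e-07). Both again lay near the median of their neighbours, -0.37 and -0.39. SDHB, the iron-sulfur subunit of complex II, fell by 0.35 ± 0.06 (SE, adjusted p = 3.95e-05) in a neighbourhood at -0.08. NDUFV2, at 28, 34.8 and 18.8 in Parental and 5.34, 14.1 and 13.7 in Resistant, had the largest fall of the 14 (-1.29 ± 0.35, adjusted p = 0.00475), but these are low counts for a core subunit of complex I, and its GENCODE v29 model shares 771 exonic bases with another gene on the same strand. The 3 members called higher were COX7B2 (1.12 ± 0.26, adjusted p = 0.00141), ATP5S (0.66 ± 0.07, adjusted p = 5.22e-07), in a neighbourhood at 0.69, and UQCRB, a small subunit of complex III (0.19 ± 0.07, adjusted p = 0.0326). UQCRB lost its call when any of 5 libraries was left out, with an adjusted p of up to 0.107.

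MT-encoded mRNAs were near their Parental level in Resistant, with a median log2 difference of -0.01 and a range of -0.18 to 0.41. With Parental library 1 or Resistant library 2 left out the median was 0.09 or 0.13. MT-ND6, the complex I subunit encoded on the light strand, was at 4463, 4148 and 4210.3 in Parental and 5624, 5227 and 6282 in Resistant, the only one of the 13 without overlap, where 63.5% of all tested genes had none. Its difference was not called (0.41 ± 0.30, adjusted p = 0.277), although with only these 6 libraries in the fit its adjusted p was 6.9e-05. MT-ND3, also of complex I, was the only one called (0.23 ± 0.08, adjusted p = 0.0305). Its libraries, 7336, 6643 and 8063 in Parental and 9280.5, 7676 and 8814 in Resistant, overlap, and the call was lost when any of 4 libraries was left out (adjusted p up to 0.152). The large ribosomal RNA of the mitochondrion, MT-RNR2, stood apart from the mRNAs. It was at 19410.3, 20274 and 20811 in Parental and 37189, 41592 and 44084 in Resistant, in ascending order, with no overlap and a difference of 1.02 ± 0.15 (SE, adjusted p = 7.9e-05). The small ribosomal RNA, MT-RNR1, was not called. Both are among the RNAs that reflect RNA quality and library preparation, whose part in this difference was not tested.

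In MYC T58A against Parental, nuclear-encoded members changed in both directions and no MT-encoded mRNA was called higher. Of the 83 nuclear-encoded members 23 were called higher and 16 lower, where 63.8% of all tested genes were called, 30.1% higher and 33.7% lower. The median of the members was 0.07 against -0.02 over all tested genes. Libraries did not overlap for 50 members, against 72.7% of all tested genes. At a minimum log2 change of 0.5, 5 were called higher and 3 lower, where 8.75% and 14.6% of all tested genes were.

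Every complex had members on both sides. In complex II, all 4 subunits were called: SDHA and SDHD higher, SDHB and SDHC lower. SDHA was at 1832, 1883 and 1946 in Parental and 3880.1, 3794 and 3951 in MYC T58A, a log2 difference of 1.04 ± 0.05 (SE, adjusted p = 5.22e-12), with no overlap. SDHD, a membrane anchor whose promoter stretch with the NRF1 palindrome is shown above, rose by 0.41 ± 0.08 (SE, adjusted p = 0.000181). SDHC, the other membrane anchor, had a difference of -0.38 ± 0.09 (SE, adjusted p = 0.00137) and SDHB one of -0.24 ± 0.06 (SE, adjusted p = 0.00114). In complex III, UQCRFS1, the Rieske iron-sulfur protein, was at 1243, 1246 and 1216 in Parental and 2447, 2420.2 and 2413 in MYC T58A, a difference of 0.97 ± 0.07 (SE, adjusted p = 1.26e-09). UQCRH, the hinge protein that helps cytochrome c to dock, was at 5548, 5749 and 5858 and 3628, 3897 and 4059.8, a difference of -0.57 ± 0.11 (SE, adjusted p = 0.000431). Neither gene had overlapping libraries. UQCRFS1P1, a pseudogene of UQCRFS1 with a nearly identical sequence, was called higher at low level (11.4, 5.12 and 8.35 against 32.1, 24.9 and 22.9), and its reads cannot be told apart from those of UQCRFS1 by the table.

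In complex V, ATP5G1, 1 of 3 genes for the same proton-carrying c subunit, was at 1520.1, 1463 and 1571 in Parental and 2984, 2876 and 3335 in MYC T58A. Its log2 difference was 1.01 ± 0.09 (SE, adjusted p = 2.41e-08), where its 50 nearest tested genes had a median of -0.29, and its promoter is the stretch with the E-box shown above. The other genes for that subunit did not follow: ATP5G2 was at 4802, 4870.0 and 5183 and 3562, 3343 and 3651, a difference of -0.49 ± 0.07 (SE, adjusted p = 1.51e-05), and ATP5G3 was not called (0.12 ± 0.08, adjusted p = 0.195). ATP5G2, whose promoter entry holds the NRF1 core, lies in a neighbourhood with a median of -0.85. ATP5G1 is 1 of 7 members whose promoter entry held the E-box. Of the others, ATP5I was called higher here, ATP5F1 was called lower, and NDUFA7, NDUFA11, NDUFS7 and UQCR11 were not called. ATP5A1, the catalytic-ring alpha subunit, was at 12137, 12734 and 12562 in Parental and 20428, 20785 and 20323 in MYC T58A (0.72 ± 0.05, adjusted p = 2.8e-09), without overlap, while its partner ATP5B, the beta subunit, was lower (-0.26 ± 0.04, adjusted p = 2.61e-05). Their neighbourhoods were at 0.47 and -0.68. ATP5E was lower as well (-0.39 ± 0.12, adjusted p = 0.00914), near its neighbours at -0.38. In complex IV, COX5A, a subunit on the matrix side, was at 2096, 1943 and 2138 and 3396, 3299.9 and 3422, a difference of 0.71 ± 0.12 (SE, adjusted p = 0.000122) in a neighbourhood at -0.04.

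In complex I, 9 of 37 subunits were called higher and 4 lower. NDUFS6 was at 2366, 2286 and 2359 in Parental and 3355, 3151 and 3620.0 in MYC T58A, a log2 difference of 0.53 ± 0.08 (SE, adjusted p = 1.31e-05), the reverse of its direction in Resistant. NDUFA8, a subunit that faces the intermembrane space, was at 1401, 1385 and 1462 and 1927, 1970.4 and 2099, a difference of 0.50 ± 0.07 (SE, adjusted p = 1.44e-05), and the NRF1 palindrome in its promoter spans the gene start. Neither gene overlapped between groups. NDUFS5, an intermembrane-side subunit, was lower, with a log2 difference of -0.47 ± 0.09 (SE, adjusted p = 0.000191).

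Chromosome position went with direction for the members called lower as a set, but only for some of those called higher. All 6 nuclear-encoded members on chromosome 1, SDHB and UQCRH among them, were called lower, with a median of -0.43, and all tested genes of that chromosome had a median of -0.45. Among the members that rose, SDHA, NDUFS6, UQCRFS1 and ATP5A1 lay in neighbourhoods with medians of 0.57, 0.54, 0.42 and 0.47. ATP5G1, COX5A and NDUFA8 did not, with medians of -0.29, -0.04 and -0.06. Over the 23 members called higher the median log2 difference was 0.39 and the median of their neighbourhoods 0.06. Over the 16 called lower these were -0.38 and -0.36. Copy number was not measured, and its part in these values was not tested.

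**Figure D3:**
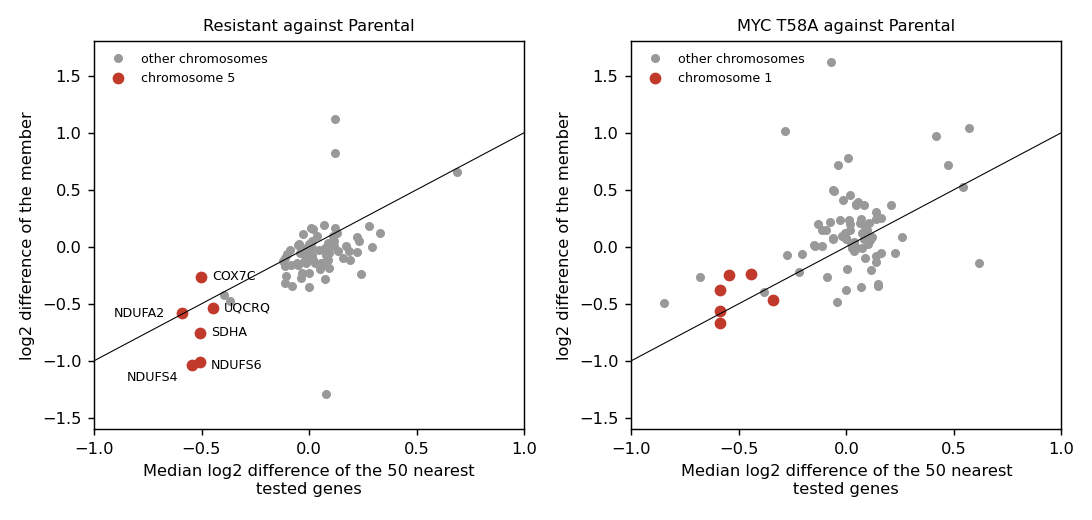
Log2 difference of each nuclear-encoded member (y axis) against the median log2 difference of its 50 nearest tested genes (x axis), in Resistant (left) and MYC T58A (right) against Parental; the line marks equal values, and COX7B2 and COX6B2, which lie below the plotted range in MYC T58A, are left out of that panel. The chromosome 5 members at left and the chromosome 1 members at right (red) lie below 0 on both axes.

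Among the 13 MT-encoded mRNAs in MYC T58A, none was called higher and 3 were called lower, where 30.1% and 33.7% of all tested genes were, with a median log2 difference of -0.19. MT-CO1, the catalytic core of complex IV, was at 31205, 27783 and 26756 in Parental and 17699, 20858 and 23508 in MYC T58A, a difference of -0.47 ± 0.14 (SE, adjusted p = 0.0113). MT-ATP8, a complex V subunit, was at 7003, 6073 and 6045 and 4762, 3862 and 4477, a difference of -0.55 ± 0.19 (SE, adjusted p = 0.0277). Neither overlapped, while the libraries of MT-ND3, also called lower (-0.20 ± 0.08, adjusted p = 0.0397), did. Of the 3, MT-CO1 alone stayed called when Parental library 1 or MYC T58A library 2 was left out. Without the libraries labelled shMYC2 in the fit the count was also 1. MT-ND1 was the highest of the 13 relative to Parental, with a difference that was not called (0.16 ± 0.16, adjusted p = 0.423).

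**Figure D4:**
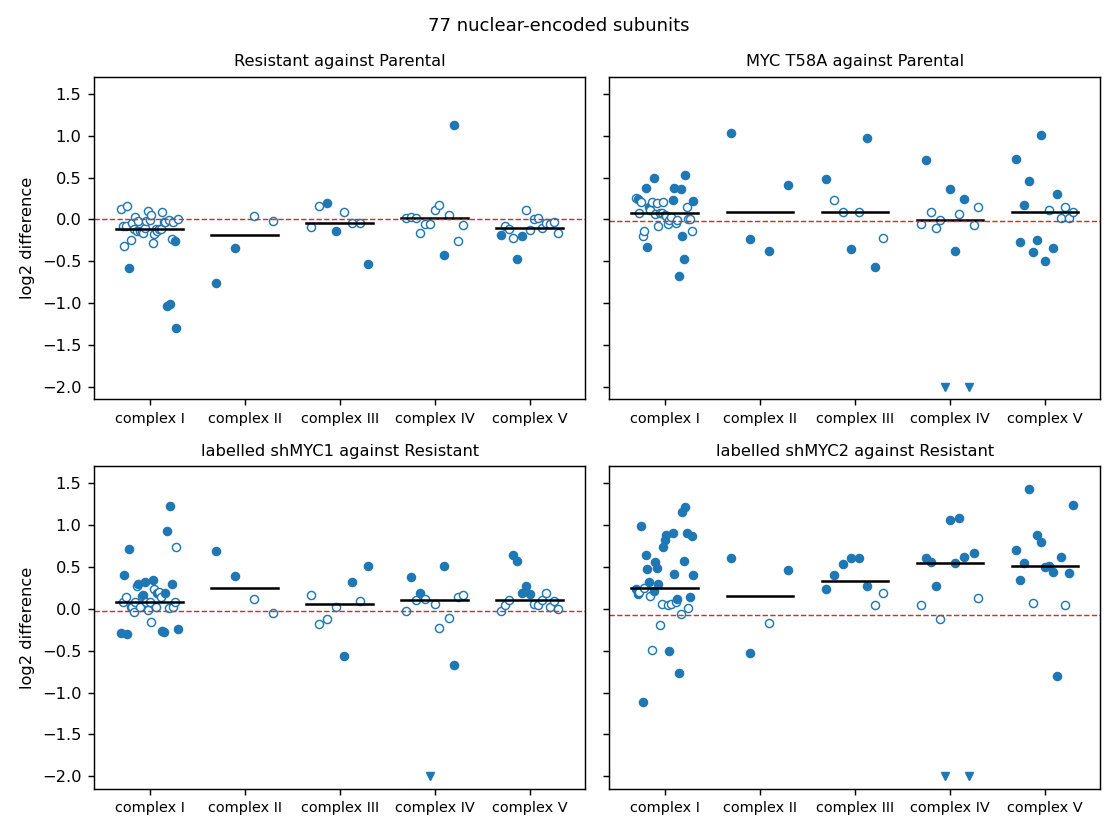
Log2 differences of the 77 nuclear-encoded subunits, grouped by complex, in the 4 main comparisons; filled points are called at an adjusted p under 0.05, open points are not, triangles mark COX7B2 or COX6B2 below -2, black lines are complex medians and the dashed line is the median of all tested genes. In the libraries labelled shMYC2 the medians of all 5 complexes lie above 0, from 0.15 in complex II to 0.54 in complex IV.

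In the libraries labelled shMYC1 against Resistant, 5 chromosome 5 members that were low in Resistant were higher, and 6 of the 13 MT-encoded mRNAs were lower. Of the 83 nuclear-encoded members 24 were called higher and 9 lower, where 57.1% of all tested genes were called, 27% higher and 30.1% lower. Libraries did not overlap for 26 members, against 60.1% of all tested genes. The median of the members was 0.11 against -0.03 over all tested genes. The median and the counts rest on library 2 of the hairpin group, whose nuclear-encoded share was 0.967% of reads against 0.747% and 0.802% in the others: without it the median was -0.01, and 13 members were called higher and 16 lower. With total-count scaling 13 were called higher, and with only these 6 libraries in the fit 12. Leaving out Resistant library 1, Resistant library 3 or library 1 labelled shMYC1 left 5 called lower.

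NDUFS6 was at 1050.1, 1163 and 1275 in Resistant and 2624, 3094 and 2487 in the libraries labelled shMYC1, a log2 difference of 1.23 ± 0.08 (SE, adjusted p = 3.82e-10). NDUFS4 was at 730.0, 646 and 709 and 1177, 1549.9 and 1264, a difference of 0.93 ± 0.08 (SE, adjusted p = 3.09e-08). SDHA was at 1163, 1041 and 1154 and 1815, 1802 and 1807, a difference of 0.69 ± 0.05 (SE, adjusted p = 1.52e-09). These 3 genes and NDUFA2 (0.71 ± 0.11, adjusted p = 5.36e-05) and UQCRQ (0.51 ± 0.15, adjusted p = 0.00894) are the chromosome 5 members that were lower in Resistant against Parental, a comparison that shares the Resistant libraries. All tested genes of chromosome 5 had a median of 0.45 here. ATP5E (0.57 ± 0.12, adjusted p = 0.000843) and COX7A2L (0.51 ± 0.05, adjusted p = 5.66e-08), also low in Resistant, were called higher too. ATP5D, the delta subunit of complex V, was at 568, 895 and 1102 in Resistant and 1223, 1440.5 and 1201 with shMYC1 (0.64 ± 0.18, adjusted p = 0.00928), and Resistant library 1 was the lowest of the 6. With only these 6 libraries in the fit its adjusted p was 0.0569.

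Among the members called lower, UQCRC2, a core protein of complex III, was at 5011, 4898 and 4631 in Resistant and 3063, 3503 and 3307 with shMYC1, a log2 difference of -0.56 ± 0.05 (SE, adjusted p = 1.88e-08) with no overlap, where its neighbours had a median of -0.11. NDUFS1, a core subunit of complex I, was lower by less (-0.27 ± 0.04, adjusted p = 4.63e-05). NDUFA13 (-0.30 ± 0.12, adjusted p = 0.0417), NDUFV3 (-0.24 ± 0.09, adjusted p = 0.0296) and ATP5S (-0.21 ± 0.07, adjusted p = 0.0217) each lost the call when some libraries were left out, with adjusted p of up to 0.2, 0.161 and 0.0786.

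Set against Parental in place of Resistant, the libraries labelled shMYC1 had 7 nuclear-encoded members called higher and 8 lower, where 39.6% of all tested genes were called, 19.7% higher and 19.9% lower. Libraries did not overlap for 20 members, against 50.7% of all tested genes. The members' median was 0.03, and it was below 0 with quantile normalization (-0.01) and with total-count scaling (-0.03). Leaving out library 2 of this group gave 4 higher and 21 lower, leaving out library 1 gave 15 higher, and leaving out Parental library 2 gave 4 higher. UQCRC2 was lower than Parental as well, with a difference of -0.47 ± 0.05 (SE, adjusted p = 6.37e-07).

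In the libraries labelled shMYC2 against Resistant, most nuclear-encoded members rose, in all 5 complexes. Of the 83, 54 were called higher and 8 lower, where 79.2% of all tested genes were called, 36.2% higher and 43% lower. Libraries did not overlap for 66 members, 57 of them higher, against 81.3% of all tested genes. The median log2 difference was 0.40 against -0.08 over all tested genes. Total-count scaling moved the median of all tested genes to -0.22 and quantile normalization moved it to 0.15, and the members' median was 0.26 and 0.34 on those scales. With total-count scaling 13 members were called lower. At a minimum change of 0.5, 17 of the 83 were called higher, where 19.3% of all tested genes were, so at that size the members' share was near that of all genes. Over the 54 members called higher the median log2 difference was 0.58 and the median of their neighbourhoods 0.09. Over the 8 called lower these were -0.83 and -0.53. The part of chromosome position in these values was not tested.

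Complex V had the largest share called higher, 12 of 15 subunits, with a median of 0.52. ATP5D was at 568, 895 and 1102 in Resistant and 2142, 2426 and 2103 in the libraries labelled shMYC2, a log2 difference of 1.43 ± 0.18 (SE, adjusted p = 9.58e-06). ATP5O, the stalk protein that ties the catalytic head to the membrane part, was at 1409, 1459 and 1347 and 3308, 3430.4 and 3234, a difference of 1.24 ± 0.10 (SE, adjusted p = 1.11e-08). In both, every library with shMYC2 was above every Resistant library. ATP5O lies on chromosome 21, where all tested genes had a median of 0.58 in this comparison. ATP5A1 and ATP5B, which form the catalytic head, were both higher here (0.71 ± 0.05, adjusted p = 1.12e-09, and 0.34 ± 0.04, adjusted p = 6.71e-07), as were all 3 genes of the c subunit, ATP5G1 (0.80 ± 0.09, adjusted p = 1.83e-07), ATP5G2 (0.50 ± 0.07, adjusted p = 7.94e-06) and ATP5G3 (0.52 ± 0.08, adjusted p = 8.21e-06). ATP5C1, the gamma subunit, whose promoter stretch with the NRF1 palindrome is shown above, rose by 0.54 ± 0.06 (SE, adjusted p = 9.86e-08). ATP5I, the small membrane subunit e, whose promoter entry holds the NRF1 core, went the other way. It went from 2307, 2169 and 2285 in Resistant to 1345, 1262 and 1269.5 (-0.80 ± 0.11, adjusted p = 4.16e-06).

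In complex IV, COX6C was at 2173, 2339 and 2093 in Resistant and 4783, 4690.4 and 4278 in the libraries labelled shMYC2, a log2 difference of 1.06 ± 0.13 (SE, adjusted p = 4.12e-06). Its pseudogene COX6CP1, near-identical in sequence, was at 0, 1.88 and 0.91 and 20.5, 31.3 and 25.6, a ratio of 27.7 with a Poisson interval of 8.78 to 132. The table does not show which of them those reads came from. COX7A2L was at 1703, 1667 and 1675 and 3549.7, 3547 and 3571, a difference of 1.08 ± 0.05 (SE, adjusted p = 3.22e-13) where its neighbours had a median of 0.13. In complex III, 6 of 8 subunits were called higher and none lower. UQCRC1 and UQCRC2, its core proteins, differed by 0.60 ± 0.06 (SE, adjusted p = 1.47e-08) and 0.60 ± 0.05 (SE, adjusted p = 1.93e-09), although the genes around UQCRC2 had a median of -0.31.

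In complex I, 23 of 37 subunits were called higher and 3 lower. NDUFS6 and NDUFS4 were again above Resistant, at 2708, 2804 and 2572 (1.22 ± 0.08, adjusted p = 1.05e-10) and at 1599, 1504 and 1526 (1.15 ± 0.08, adjusted p = 4.46e-10). NDUFA12, an accessory subunit of the matrix arm, was at 1876, 1685 and 1821 in Resistant and 3653, 3641 and 3393 with shMYC2, a difference of 0.99 ± 0.09 (SE, adjusted p = 2.97e-08). These 3 did not overlap between groups. NDUFS6 and NDUFS4 lie on chromosome 5, where all tested genes had a median of 0.29. NDUFA13, also known as GRIM-19, was at 293, 347 and 337 and 173, 131 and 146, a difference of -1.12 ± 0.12 (SE, adjusted p = 1.13e-07) in a neighbourhood at -1.06, and its model shares 568 exonic bases with other genes on the same strand. NDUFB7, an accessory subunit of the membrane arm, was lower, with a log2 difference of -0.50 ± 0.11 (SE, adjusted p = 0.000834). In complex II, SDHB was at 3173, 3232 and 3308 and 2239, 2291 and 2194, a difference of -0.53 ± 0.06 (SE, adjusted p = 6.44e-08) with no overlap, in a neighbourhood at -0.75, while SDHA (0.61 ± 0.05, adjusted p = 2.56e-09) and SDHD (0.47 ± 0.08, adjusted p = 2.66e-05) were higher and SDHC was not called (-0.17 ± 0.09, adjusted p = 0.0873). ATP5S, which is not a subunit, was lower, with a log2 difference of -0.85 ± 0.07 (SE, adjusted p = 3.94e-09), near its neighbours at -0.93.

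MYC T58A against Parental and shMYC2 against Resistant share no library, and in both the first group held more MYC than the second. Of the nuclear-encoded members, 20 were called higher in both, which is 87.0% of the 23 higher in MYC T58A and 37.0% of the 54 higher with shMYC2. Over all tested genes 2319 were higher in both, 45.2% and 37.7% of the respective lists. The members were higher with shMYC2 more often to begin with, 54 of 83, where 36.2% of all tested genes were. The 20 included ATP5A1, ATP5C1, ATP5D, ATP5G1, COX5A, NDUFA8, NDUFS6, SDHA, SDHD and UQCRFS1. The call of ATP5D in MYC T58A was lost when any of the 6 libraries was left out, with an adjusted p of up to 0.115. Lower in both were 4 members, COX6B2, COX7B2 and SDHB among them. That is 25% of the 16 lower in MYC T58A and 50% of the 8 lower with shMYC2. Over all tested genes 2918 were lower in both, 50.9% and 39.9% of the respective lists. Of the 16 lower in MYC T58A, 9 (56.25%) were higher with shMYC2: ATP5B, ATP5F1, ATP5G2, ATP5H, COX7A2, NDUFA4, NDUFS4, NDUFS5 and UQCRC1. ATP5I and ATP5S were the reverse. In MYC T58A, NDUFS4 lost its call when any of 5 libraries was left out (adjusted p up to 0.217) and ATP5I when any of 3 was (up to 0.0709). NDUFA4 counts here with complex I by its name, although it is now regarded as a part of complex IV. Of the 20, 16 had a promoter entry, and 4 of these held the NRF1 core and 1 the E-box. Of the members called in neither comparison, 14 had an entry, and 1 held the NRF1 core and 2 the E-box.

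The MT-encoded mRNAs differed between the hairpin labels. With shMYC1, 6 of 13 were called lower than Resistant and none higher, where 57.1% of all tested genes were called and 30.1% were lower. The median log2 difference was -0.38 and all 13 differences were below 0. Libraries did not overlap for 4 of the 13, against 60.1% of all tested genes. MT-ND2, a complex I subunit, was at 23027, 17744 and 19698 in Resistant and 14035, 11733 and 14569.9 with shMYC1, a difference of -0.58 ± 0.09 (SE, adjusted p = 5.88e-05). MT-ND3 was at 9280.5, 7676 and 8814 and 6166, 5910.1 and 5407, a difference of -0.56 ± 0.08 (SE, adjusted p = 2.19e-05). Neither overlapped. MT-ND6 was at 5624, 5227 and 6282 and 3334, 1455 and 4226 (-1.06 ± 0.30, adjusted p = 0.0106), also without overlap, and library 2 was far below the others of its group. With only these 6 libraries in the fit its adjusted p was 0.105. MT-CO2 of complex IV (-0.48 ± 0.13, adjusted p = 0.0066) did not overlap either, while MT-ATP6 (-0.45 ± 0.16, adjusted p = 0.0304) and MT-ATP8 (-0.64 ± 0.19, adjusted p = 0.0146) of complex V did. The count ran from 4 to 12 as libraries were left out, and was 11 without Resistant library 2 and 12 without library 3 labelled shMYC1.

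Against Parental, 6 MT-encoded mRNAs were called lower with shMYC1 and none higher, where 39.6% of all tested genes were called and 19.9% were lower, again with a median of -0.38. That count ran from 2 without library 2 of the hairpin group, through 3 without its library 1 or without Parental library 1, to 11 without its library 3.

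With shMYC2, 5 MT-encoded mRNAs were called higher than Resistant and 2 lower, where 36.2% and 43% of all tested genes were, with a median log2 difference of 0.33. The median was 0.19 with total-count scaling and 0.01 with quantile normalization, so its size depends on the scale. MT-CYB, the MT-encoded core of complex III, was at 19932, 13695 and 19202 in Resistant and 34624, 35706 and 33335 with shMYC2, a difference of 0.99 ± 0.19 (SE, adjusted p = 0.000374). MT-ND5, a proton-pumping subunit of complex I, was at 17963, 14911 and 17640.4 and 32483, 34305 and 32269, a difference of 0.98 ± 0.16 (SE, adjusted p = 0.000122). Every library with shMYC2 stood above every Resistant library for both genes, by much more than the spread of either group. MT-ND1 of complex I had a difference of 0.61 ± 0.16 (SE, adjusted p = 0.00376), MT-ATP8 one of 0.56 ± 0.19 (SE, adjusted p = 0.0189) and MT-CO1 one of 0.35 ± 0.14 (SE, adjusted p = 0.0407). MT-ATP8 lost its call when any of 3 of the 6 libraries was left out, and MT-CO1 when any of 5 was (adjusted p up to 0.0772 and 0.164). The count was 3 without Resistant library 2, Resistant library 3 or library 2 labelled shMYC2, and 8 without Resistant library 1. MT-ND6 was at 2654, 2641 and 2598 with shMYC2, a difference of -1.11 ± 0.30 (SE, adjusted p = 0.00517), and MT-ND2 at 14945, 15831 and 15704, a difference of -0.37 ± 0.09 (SE, adjusted p = 0.00166). Both lay below all Resistant libraries.

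The 13 mRNAs thus did not move as a block, and their shares of the MT mRNA reads, which do not depend on the scaling of a library, show the same genes. MT-CYB took 7.52% ± 0.18 (SD, n = 3) of these reads in Parental, 7.83% ± 0.46 in Resistant, 8.83% ± 0.39 with shMYC1, 12.4% ± 0.25 with shMYC2 and 7.48% ± 0.41 in MYC T58A. MT-ND5 took 11.8% to 11.9% with shMYC2 and 7.03% to 8.05% in Resistant. MT-ND4, the mRNA with the most reads in all groups, took 15.8% to 15.9% with shMYC2 and 19.1% to 20.3% in Resistant. In the libraries labelled shMYC2 the shares of MT-CYB and MT-ND5 were thus above, and those of MT-ND4, MT-ND2 (5.43% to 5.74% against 8.52% to 9.57%) and MT-ND6 (0.906% to 0.97% against 2.2% to 2.82%) below, every Resistant library. MT-ND1 took 6.91% to 7.05% in MYC T58A and 5.34% to 5.72% in Parental, with no overlap. Per kilobase of its GENCODE v29 model, MT-ND4 had the highest mean in Parental (35946 normalized reads per kilobase), and MT-ND5 (9488) and MT-ND6 (8140) the lowest. With shMYC2 MT-ATP8 was highest (42626) and MT-ND6 lowest (5012). MT-ATP8 shares 46 of its bases with MT-ATP6 and MT-ND4L shares 7 with MT-ND4, and nuclear copies of mitochondrial sequence can take up or add reads.

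**Figure D5:**
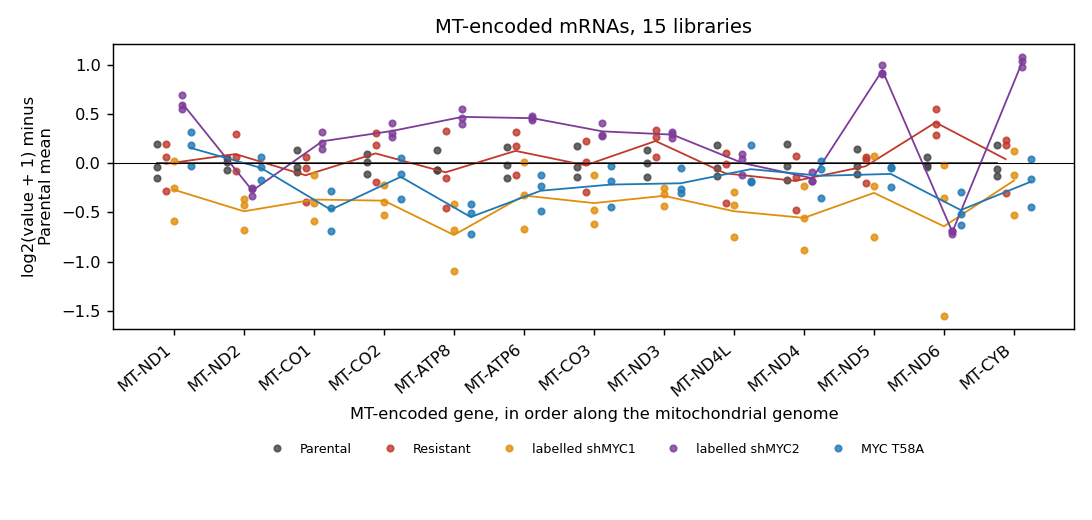
Log2(value + 1) of the 13 MT-encoded mRNAs minus the mean of the Parental libraries, in order along the mitochondrial genome; points are libraries, lines join group means. The libraries labelled shMYC2 peak at MT-ND5 and MT-CYB and drop at MT-ND6 and MT-ND2, and the group means with shMYC1 lie below 0 for all 13.

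The large mitochondrial ribosomal RNA, MT-RNR2, was at 11625, 18159 and 18221 with shMYC1 and 49706, 53788 and 59267 with shMYC2, in ascending order, log2 differences to Resistant of -1.38 ± 0.15 (SE, adjusted p = 4.18e-06) and 0.41 ± 0.15 (SE, adjusted p = 0.0227). In MYC T58A it was near Parental (-0.07 ± 0.15, adjusted p = 0.695). MT-RNR1, the small ribosomal RNA, was not called in any of the 4 main comparisons, and with shMYC2 its libraries were at 2577, 2721 and 8159, with 1 far above the others.

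The test of shMYC2 against shMYC1 addresses the difference between the hairpin labels directly. Of the nuclear-encoded members 41 were called higher with shMYC2 and 16 lower, where 78.6% of all tested genes were called, 35.7% higher and 42.9% lower. Libraries did not overlap for 54 members, against 78.8% of all tested genes, and the members' median was 0.22. Of the MT-encoded mRNAs 11 were called higher and none lower, with a median of 0.71. MT-ND4 (0.40 ± 0.18, adjusted p = 0.0541) and MT-ND6 (-0.06 ± 0.30, adjusted p = 0.872) were not called. Without library 2 labelled shMYC1, MT-ND6 was called lower (-0.51, adjusted p = 0.000916). UQCRC2 differed by 1.16 ± 0.05 (SE, adjusted p = 1.47e-13) and SDHB by -0.92 ± 0.06 (SE, adjusted p = 2.49e-11), each with opposite called differences from Resistant under the 2 labels.

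The tissue-restricted forms of complex IV subunits stood out by size. COX7B2, a form of COX7B found in testis, was at 112, 117 and 115 in Parental, 253, 264 and 236 in Resistant, 123, 199 and 158 with shMYC1, 0, 1.04 and 0 with shMYC2 and 0, 0 and 0 in MYC T58A. The groups with the most MYC thus held at most 1 read per library, and all others held over 100. Against Parental it was at least 39.2-fold lower in MYC T58A, taking 3 reads per library as the limit that a count of 0 allows (limma adjusted p = 2.12e-13). With shMYC2 the ratio of the Resistant mean to the mean of the labelled libraries was 722, with a Poisson interval of 129 to 28408 for counting error (adjusted p = 6.84e-15). In Resistant it was higher than in Parental, with a difference of 1.12 ± 0.26 (SE, adjusted p = 0.00141). With a pseudocount of 0.1 its adjusted p there was 0.183. With shMYC1 it was lower than Resistant (-0.67 ± 0.26, adjusted p = 0.0346), a call lost when any of 5 libraries was left out (adjusted p up to 0.157). The widely expressed form COX7B was higher with shMYC2 (0.62 ± 0.09, adjusted p = 1.65e-05) and in MYC T58A (0.24 ± 0.09, adjusted p = 0.0378).

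COX6B2, the testis form of COX6B1, was at 28, 22.5 and 19.8 in Parental, 23.5, 22.6 and 20.9 in Resistant, 2.85, 4.41 and 4.78 with shMYC1, 0, 0 and 0 with shMYC2 and 1, 0 and 6.17 in MYC T58A. Parental and Resistant overlap, and the other 3 groups lie below both. Against Resistant it was at least 7.1-fold lower with shMYC2 (adjusted p = 1.18e-07) and lower with shMYC1, with a difference of -2.24 ± 0.49 (SE, adjusted p = 0.000806). The Parental mean was 9.82 times the MYC T58A mean, with a Poisson interval of 4.36 to 21.9. Its model shares 1178 exonic bases with another gene on the same strand, so that part of its reads may belong to that gene. COX6B1 was not called in any of the 4 main comparisons. NDUFA4L2, a form of NDUFA4 known to respond to low oxygen, was at 23.9 to 31.3 in Parental, 54.4 to 74.7 in Resistant and 7.27 to 14.1 in MYC T58A, log2 differences to Parental of 1.19 ± 0.24 (SE, adjusted p = 0.000362) and -1.24 ± 0.24 (SE, adjusted p = 0.00017). COX4I2, COX6A2, COX7A1, COX8C and UQCRHL are not analysed here.

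Genes that build and supply the respiratory chain were read from lists chosen by general knowledge. Neighbourhood medians were taken for the 98 members only. The part of chromosome position in the values of the other list genes, given here and in the next paragraphs, was therefore not tested. In MYC T58A against Parental, 22 of 28 measured genes for mitochondrial DNA copying and transcription were called higher and 3 lower, with a median log2 difference of 0.49, where 30.1% of all tested genes were called higher and 33.7% lower. POLRMT, the mitochondrial RNA polymerase, was at 1226 ± 29.1 (SD, n = 3) in Parental and 2476 ± 147 in MYC T58A (1.01 ± 0.10, adjusted p = 2.13e-07). FASTKD3, an RNA-binding protein of mitochondria, was higher, with a log2 difference of 0.96 ± 0.07 (SE, adjusted p = 1.64e-09). KIAA0391, the catalytic protein of mitochondrial RNase P, was higher as well (1.82 ± 0.31, adjusted p = 5.21e-05). FASTK was lower, with a log2 difference of -0.67 ± 0.08 (SE, adjusted p = 9.19e-07). Of 48 assembly factors 25 were higher and 7 lower, led by NDUFAF7 of complex I (0.93 ± 0.06, adjusted p = 7.8e-10) and TACO1, which activates translation of MT-CO1 (0.86 ± 0.07, adjusted p = 9.21e-09), with ATPAF1 of complex V lowest (-0.73 ± 0.04, adjusted p = 1.38e-10). Of 32 genes for import and cristae 18 were higher, among them the import channel TOMM40 (0.75 ± 0.07, adjusted p = 7.47e-08) and prohibitin PHB (0.78 ± 0.07, adjusted p = 1.1e-08), and 1, TOMM20, was lower (-0.31 ± 0.04, adjusted p = 3.03e-06). Of 10 measured respiratory chain parts outside the name rule, the mitochondrial ribosomal RNAs and NDUFA4L2 among them, 4 were higher and 2 lower with a median of 0.02. CYC1 of complex III was at 0.48 ± 0.08 (SE, adjusted p = 4.87e-05) and CYCS, cytochrome c itself, at 0.46 ± 0.06 (SE, adjusted p = 2.75e-06). Of 21 genes of the tricarboxylic acid cycle 8 were higher and 7 lower, with a median of 0.02.

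With shMYC2 against Resistant, the shares of these lists were near those of all tested genes, of which 36.2% were called higher and 43% lower: 12 of the 28 genes for mitochondrial DNA copying and transcription were higher and 11 lower, 17 of the 48 assembly factors were higher and 18 lower, and 12 of the 32 import and cristae genes were higher and 13 lower. TFB2M, a factor that starts mitochondrial transcription, was at 2835 ± 133 in Resistant and 998 ± 42.6 with shMYC2 (-1.50 ± 0.06, adjusted p = 9.11e-14), while the RNA-binding protein FASTKD1 was higher (1.31 ± 0.08, adjusted p = 1.41e-11). COX18, which inserts a complex IV subunit into the membrane, was lower (-1.46 ± 0.09, adjusted p = 5.56e-11) and COX16 higher (0.95 ± 0.10, adjusted p = 7.74e-08). TOMM20, an import receptor, was at 22666 ± 737 and 7603 ± 128 (-1.58 ± 0.04, adjusted p = 1.72e-16), and PHB was higher (0.89 ± 0.07, adjusted p = 6.15e-10). CYC1 was higher (1.29 ± 0.08, adjusted p = 9.48e-11). Of 21 genes of the tricarboxylic acid cycle, which feeds the chain, 6 were higher and 11 lower with shMYC2, including fumarase FH at 5862 ± 165 in Resistant and 1879 ± 68.7 with shMYC2 (-1.64 ± 0.05, adjusted p = 3.8e-15) and the succinyl-CoA ligase subunit SUCLG1, which was higher (0.96 ± 0.05, adjusted p = 1e-12).

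In Resistant against Parental, where 27.2% of all tested genes were called higher and 24.4% lower, the lists' lower and higher calls were 14 against 8 of 48 for assembly factors, 10 against 3 of 28 for mitochondrial DNA copying and transcription, 11 against 4 of 32 for import and cristae, and 9 against 1 of 21 for the tricarboxylic acid cycle. The lowest of each list were NDUFAF5 of complex I assembly (-0.69 ± 0.08, adjusted p = 5.62e-07), FASTKD3 (-0.86 ± 0.07, adjusted p = 1.35e-08), the cristae organiser IMMT (-0.64 ± 0.05, adjusted p = 2.05e-08) and pyruvate carboxylase PC (-1.42 ± 0.09, adjusted p = 6.18e-10). IDH2, mitochondrial isocitrate dehydrogenase, was the gene called higher in the last list (0.86 ± 0.08, adjusted p = 1.02e-07). With shMYC1 against Resistant, where 27% of all tested genes were called higher and 30.1% lower, the counts were 14 higher and 8 lower for assembly factors, 10 and 4 for DNA copying and transcription, 14 and 5 for import and cristae, and 8 and 3 for the tricarboxylic acid cycle. Among 21 regulators of respiration, 7 were higher and 7 lower in Resistant, 9 and 7 in MYC T58A, 7 and 7 with shMYC1, and 9 and 8 with shMYC2, beside the shares of all tested genes given above for each comparison. MITF, the lineage factor named above, was at 1509 ± 1.76 in Parental, 3748 ± 233 in Resistant, 1619.7 ± 118 with shMYC1, 173 ± 23 with shMYC2 and 3592 ± 194 in MYC T58A. PPARGC1A and MITF were thus both lowest with shMYC2 and both above Parental in every Resistant library, but in MYC T58A MITF was above Parental (1.25 ± 0.08, adjusted p = 2.36e-10) while PPARGC1A was below it. They also parted with shMYC1, where the MITF mean was not below Parental. There every library held less PPARGC1A than any Parental library (means of 21.5 and 65.6). PRKAA2, a catalytic subunit of the energy sensor AMPK, was at 973, 993 and 1071 in Resistant and 0, 0 and 1.08 with shMYC2, in ascending order, and was called lower (adjusted p = 2.32e-16).

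By GENCODE v29, 50 of the 98 members share exonic bases with another gene, 29 of them on the same strand, and the counted strand was not given in the sources used here. NDUFA7 (12.5 to 17.4 normalized reads in Parental) and NDUFV2 (18.8 to 34.8) were low, and both share bases on the same strand. Their values, like those of the 4 pseudogenes, which stayed between 0 and 49.5 in every library, describe what was counted under the name.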

How the data were processed

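RNA of 15 A375 libraries in 5 groups of 3 was sequenced after Kapa Stranded mRNA-Seq preparation, per the labels' protocols. Adapter trimming (Trim Galore, cutadapt), STAR, HTSeq and DESeq2 are listed in the submitters' processing notes with no versions. Genome build, annotation and counting strand were not given in the sources used here. Values in the deposited table are the authors' normalized signal per gene: dividing each column by its smallest step gave whole reads for 100% of the values within 0.01, so the values were read as counts divided by a size factor, with steps of 0.881 to 1.08. This unit was read from the values and is not stated. Column numbers do not match the labels' replicate numbers, so libraries are numbered in column order within their group.

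Of 18322 genes, 17012 reached a value of 10 in 3 or more libraries and were tested on log2(value + 1) with limma 3.58.1 (R 4.3.3; trend and robust variance, 2-sided) over all 15 libraries, and p-values were adjusted by Benjamini-Hochberg over all tested genes. The threshold was an adjusted p of 0.05. The script was tested on simulated counts for Resistant against Parental and for shMYC2 against Resistant. It called 56% and 62% of the genes given a 1.3-fold change, and 86% and 94% of those given a 1.5-fold change. Of its calls, 8.15% and 5.82% were false. A total of 6 comparisons were made. Whole reads per library, 24222192 to 30399644, set the counting error. Poisson intervals (95%) and a limit of 3 reads for a count of 0 cover counting error only. Neighbourhood medians use the 25 nearest tested genes on each side by RefSeq GRCh38.p14 order, with GENCODE v29 where RefSeq held no match. The 14917 symbols placed of 17012 include all 83 nuclear-encoded members. Per-library shares of MT mRNA were computed with Python 3.11.15.

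Alternatives were other pseudocounts, filters, scalings, thresholds and designs, edgeR 4.0.16 and DESeq2 1.42.0 on the recovered reads, and leaving out each library. Named genes were all MT-encoded mRNAs and the regulators, the 8 largest called changes per direction without overlap among nuclear-encoded members, tissue-restricted forms, and up to 3 called genes per direction in each list. Other members named were chosen after their values were seen, and 1 result within the rule is not reported here. The members and lists were chosen with earlier results of these data known.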

Additional observations from a re-analysis of the deposited data

Results flagged for a closer look

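For 6 members the log2 differences from Resistant were called in opposite directions under the labels shMYC1 and shMYC2, and the difference between those labels was itself called by limma. These comparisons share the Resistant libraries. UQCRC2, a core protein of complex III, differed by 1.16 for shMYC2 minus shMYC1 (adjusted p = 1.47e-13), from -0.56 with shMYC1 and 0.60 with shMYC2. MT-ATP8 of complex V differed by 1.2 (adjusted p = 0.000114), NDUFV3 of complex I by 0.64 (adjusted p = 3.71e-06) and NDUFA1 of complex I by 0.54 (adjusted p = 0.000291). NDUFS1, a core subunit of complex I, differed by 0.39 (adjusted p = 2.79e-07), but its difference of 0.12 between shMYC2 and Resistant turned to -0.0246 with quantile normalization. SDHB, the iron-sulfur subunit of complex II, went the other way, by -0.92 (adjusted p = 2.49e-11).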

How the results depend on the processing

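Of the 628 counts and medians recomputed under alternatives, 555 stayed close to the reported value and 73 moved; of 6935 values of named genes, 6408 stayed, 214 lost and 148 gained a call, 162 moved and 3 that were called turned direction, and 152 values of genes not called also crossed 0. The 3 were NDUFS1 in shMYC2 against Resistant, at -0.0246 with quantile normalization, -0.0299 with total-count scaling and -0.0279 with total-count scaling without MT-encoded genes. With only the compared groups fitted, nuclear-encoded members called higher and lower in Resistant were 7 and 27; for shMYC1 against Resistant 12 nuclear-encoded members were higher and 3 MT-encoded ones lower. At a minimum change of 0.5, nuclear-encoded members called higher and lower were 0 and 3 in Resistant, 5 and 3 in MYC T58A, 3 and 1 for shMYC1 against Resistant, 0 and 1 for shMYC1 against Parental, and 13 and 5 for shMYC2 against shMYC1, and 17 were higher for shMYC2 against Resistant. MT-encoded counts at that minimum were 0 higher in Resistant, 0 lower in MYC T58A and in shMYC1 against Resistant or Parental, 2 higher and 0 lower in shMYC2 against Resistant, and 4 higher in shMYC2 against shMYC1. At an adjusted p under 0.01, MT-encoded counts were 0 higher in Resistant, 0 lower in MYC T58A, 3 lower in shMYC1 against Resistant, 2 lower in shMYC1 against Parental and 3 higher in shMYC2 against Resistant; nuclear-encoded counts were 12 higher and 4 lower in shMYC1 against Resistant and 4 higher in shMYC1 against Parental. Total-count scaling gave 13 nuclear-encoded members higher in shMYC1 against Resistant (12 without MT-encoded genes in the sum), and for shMYC2 against Resistant 13 lower, a median of 0.2601 (0.2621) and 3 MT-encoded mRNAs higher. Quantile normalization gave 11 MT-encoded mRNAs lower in shMYC1 against Resistant and, for shMYC2 against Resistant, 2 higher with a median of 0.0057, and a nuclear-encoded median of 0.344. Without the libraries labelled shMYC2, 1 MT-encoded mRNA was lower in MYC T58A. Leaving out each library in turn gave 0 to 1 MT-encoded mRNAs higher and a nuclear-encoded median of -0.085 to -0.0525 in Resistant, and 1 to 3 MT-encoded mRNAs lower in MYC T58A. For shMYC1 against Resistant it gave 13 to 34 nuclear-encoded members higher, 5 to 16 lower, a median of -0.0136 to 0.1924 and 4 to 12 MT-encoded mRNAs lower. For shMYC1 against Parental these were 4 to 15, 6 to 21 and 2 to 11. For shMYC2 against Resistant 3 to 8 MT-encoded mRNAs were higher, with a nuclear-encoded median of 0.3494 to 0.416, and 0 to 1 were lower in shMYC2 against shMYC1. Apart from the fits with fewer samples and the stricter thresholds, the cause of these shifts was not tested. No paired analysis was possible because the columns of the table carry no replicate numbers of the labels. The lowest MT-encoded value in any library was 1455 normalized reads, for MT-ND6, while low counts limit the pseudogenes, NDUFA7 and NDUFV2.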
